A study of Rattus norvegicus with 14 samples.

Results

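Transcripts of the subunits and assembly factors of respiratory complex I were measured in the plantaris, a fast calf muscle, of 14 Wistar rats, with 1 array per muscle. Members were the genes whose name on the array begins with Nduf, each represented by its brightest probe. There were 47 of them among 26115 gene names on the array, 40 subunits and 7 assembly factors. The study asked how lack of vitamin D in the diet, and its return, bears on skeletal muscle. The control diet (n = 4) held vitamin D at 1000 IU/kg, a depletion group (n = 6) was fed a vitamin D depletion diet, and a repletion group (n = 4) was depleted and then given vitamin D again. The labels give neither age, sex nor duration of the diets. Depletion replicate 1 is labelled as depletion in its title and as depletion and repletion in its diet field. It was grouped by title here, and the subunit medians of each comparison are given with and without it. The arrays lay on 5 slides, numbered 1 to 5 below, and slide was kept as a block in every fitted difference.

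Complex I (NADH:ubiquinone oxidoreductase) takes electrons from NADH, passes them along a chain of flavin and iron-sulfur centres to ubiquinone, and pumps protons across the inner mitochondrial membrane. Its core is conserved from bacteria, with part of it encoded in the nucleus (the Ndufv and Ndufs core genes) and part in mitochondrial DNA (the ND genes). Accessory subunits surround the core and stabilise it. Assembly factors (Ndufaf) help to build the complex and are not part of the finished enzyme. In skeletal muscle the complex feeds the oxidative supply of ATP, and its transcripts tend to be more abundant in oxidative than in glycolytic fibres.

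Transcription of many respiratory chain genes is known to involve nuclear respiratory factor 1 (NRF-1), ETS-family factors such as NRF-2 (GABP), and YY1. Promoter windows from RefSeq (build GRCr8, 250 bases before to 50 bases after the annotated start) were found by symbol for 41 of the 47 members. The NRF-1 motif searched for was GCGCANGCG, the ETS motif CCGGAAG and the YY1 motif AAGATGGC, each on both strands. NRF-1 letters were in 11 of the 41 windows (26.8%), against 5.80% of all 33469 windows in the table and 7.62% of the 21851 windows of protein-coding genes. ETS letters were in 8 windows (19.5%), against 8.75% of all and 10.7% of coding windows. YY1 letters were in 8 windows (19.5%), against 3.17% of all and 3.68% of coding windows. At least 1 of the 3 motifs was in 23 of the 41 windows (56.1%), against 15.7% of all and 19.4% of coding windows. The members' windows had a median GC content of 57.3%, against 55% for coding windows, and matches were not compared at equal GC content. The TATA box letters TATAAA were in 3 of the 41 windows (7.32%: Ndufa2, Ndufa7 and Ndufs6), against 13.0% of coding windows.

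The windows of 3 subunits are shown. Ndufb10 lay farthest below its own mean, and Ndufs6 nearest to its own, in the muscle that stood apart from the others for complex I (depletion replicate 1), while Ndufa6 was the member whose window held all 3 motifs. Capitals mark the NRF-1, ETS and YY1 matches. The windows are on the minus strand at chr10:14255917-14256216 (Ndufb10), the plus strand at chr1:31797150-31797449 (Ndufs6) and the minus strand at chr7:115750268-115750567 (Ndufa6), in GRCr8.
Ndufb10: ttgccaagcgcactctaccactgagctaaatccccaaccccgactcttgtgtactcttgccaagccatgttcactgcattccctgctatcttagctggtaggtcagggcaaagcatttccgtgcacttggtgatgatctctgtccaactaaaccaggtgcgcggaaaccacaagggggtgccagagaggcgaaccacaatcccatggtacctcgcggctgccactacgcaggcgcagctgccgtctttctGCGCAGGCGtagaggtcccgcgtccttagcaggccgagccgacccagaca
Ndufs6: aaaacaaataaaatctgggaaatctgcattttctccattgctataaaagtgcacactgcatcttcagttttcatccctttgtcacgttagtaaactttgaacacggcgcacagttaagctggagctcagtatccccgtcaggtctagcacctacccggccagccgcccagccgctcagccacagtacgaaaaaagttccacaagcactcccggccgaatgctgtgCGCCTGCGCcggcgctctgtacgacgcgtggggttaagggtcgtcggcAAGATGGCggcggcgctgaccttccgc
Ndufa6: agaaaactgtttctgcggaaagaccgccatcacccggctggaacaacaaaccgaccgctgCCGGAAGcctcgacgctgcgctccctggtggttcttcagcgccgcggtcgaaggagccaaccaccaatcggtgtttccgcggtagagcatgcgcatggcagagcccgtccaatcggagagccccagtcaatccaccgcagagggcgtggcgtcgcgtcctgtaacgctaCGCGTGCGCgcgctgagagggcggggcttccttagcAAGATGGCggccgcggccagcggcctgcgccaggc
Ndufb10 held 1 NRF-1 match, Ndufs6 an NRF-1 and a YY1 match, and Ndufa6 an ETS, an NRF-1 and a YY1 match, in that order from 5′ to 3′. The match is of letters in a window, and binding was not measured. Both Ndufb10 and Ndufs6, picked by their values in depletion replicate 1, hold NRF-1 letters, and motifs were not tested against those values.

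Levels are log2 of the processed spot intensity minus log2 of the array's 75th percentile, so that a level of 0 is that percentile. The precision of a group is limited by its number of arrays. All 47 members were well above background on all 14 arrays. Across the arrays 82.8% to 88.1% of spots passed that mark, and none was saturated. Subunit probes had mean levels from -2.32 (Ndufa7) to 6.95 (Ndufb8), and assembly factor probes from -6.06 (Ndufaf2) to 2.80 (Ndufaf3). Probes differ in how brightly they bind, so these levels were not set against each other. The muscle fibre list (Acta1, Ckm, Myh4, Myh1, Pvalb, Tnnt3, Atp2a1 and Mb) had mean levels from 6.67 to 8.18. The adipocyte markers Plin1 and Lep were well above background on 10 and 11 of the 14 arrays. The mean subunit deviation is the mean over subunits of each array's difference from the gene's 14-array mean. In the control muscles the SD of this mean was 0.08 over 4 arrays. Single subunits could vary more, such as Ndufa10, at 3.89 to 4.51 in the same arrays.

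Complex I transcripts were called in no diet comparison. In depletion against control, 32 of the 40 subunits and 4 of the 7 assembly factors had fitted differences below 0, with a median of -0.10 for subunits and -0.033 for assembly factors on the log2 scale, against -0.023 over all 26391 probes tested, of which 54.7% were below 0. No member passed limma's adjusted p threshold of 0.05 (lowest adjusted p = 0.833), and 0 of the 26391 probes did (0%). At an unadjusted p under 0.05 there were also 0 members, against 4.83% of all probes. The members' 95% intervals reached a median of 0.34 to either side, a 1.27-fold change, so that smaller changes in single members could not be shown. The labels call the replicates biological.

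**Figure D1:**
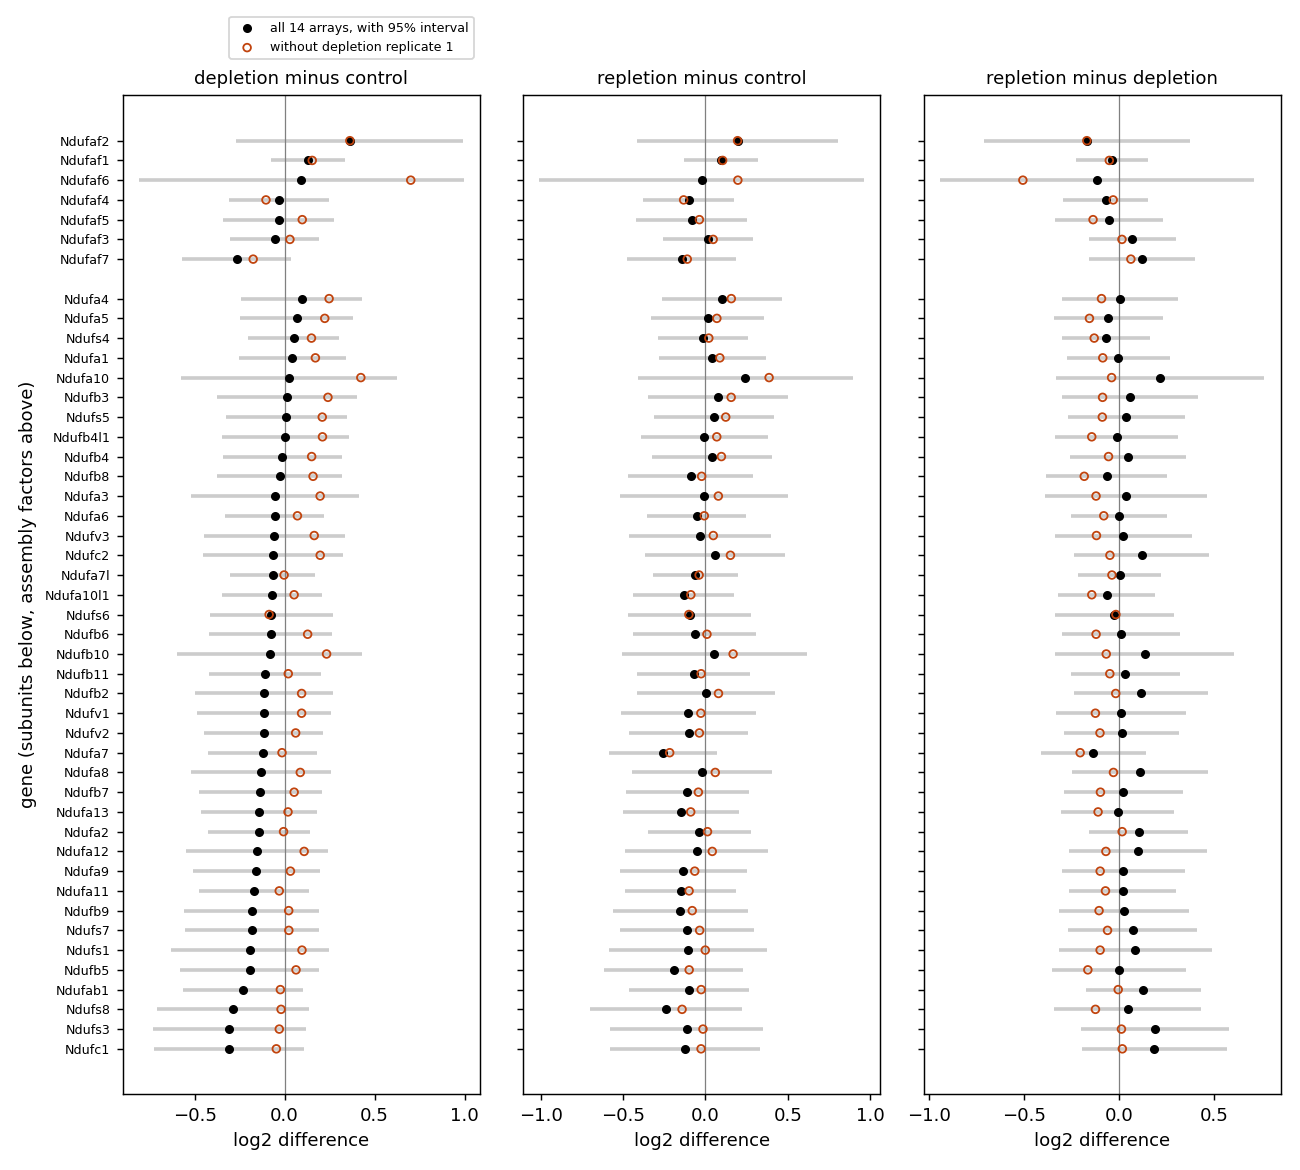
Fitted log2 differences (horizontal axis) of 46 of the members, each gene in its own row, for depletion minus control, repletion minus control and repletion minus depletion; black points use all 14 arrays, grey bars are their 95% intervals, and open circles leave out depletion replicate 1. All 46 intervals of depletion minus control cross 0, and in that panel the open circle lies above the black point for every subunit except Ndufs6.

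The subunits' direction in that comparison rested on depletion replicate 1. Without it, 31 of 40 subunits lay above 0 and the median was 0.09 in place of -0.10; the assembly factors' median became 0.10, with 5 of 7 above 0. The share of all probes below 0 was 52.0% without it. Again 0 members passed the adjusted threshold (lowest adjusted p = 1.00), as did 0% of all probes. At an unadjusted p under 0.05 there were 2 of 47 members, against 3.04% of all probes. They were Ndufaf6, at 0.70 (unadjusted p = 0.019 by limma), and Ndufa10, at 0.42 (unadjusted p = 0.030 by limma). Counted as repletion, as its diet field has it, depletion replicate 1 left a subunit median of -0.021 in depletion against control.

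Depletion replicate 1 was the lowest of the 14 muscles for 38 of the 40 subunits (95%), against 19.2% of all probes and 27.2% of the 3225 probes with a mean level of at least 2. Its mean subunit deviation was -0.50, where the other 5 depletion arrays lay between -0.02 and 0.14, the controls between -0.10 and 0.10 and the repletion arrays between -0.08 and 0.10. Without this array the 3 ranges overlapped in part: depletion replicates 2 and 3 lay above every control and repletion array, and depletion replicate 5 was level with the highest control. All 40 subunits were below their own mean in it. The lowest was Ndufb10, an accessory subunit of the membrane arm, at -0.91, and the one closest to its mean was Ndufs6, an accessory zinc-binding subunit of the peripheral arm, at -0.03. The 2 subunits whose lowest value lay elsewhere were Ndufs6 and Ndufa7. The median over all probes in the same array was -0.11, and that of probes with a level of at least 2 was 0.02.

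**Figure D2:**
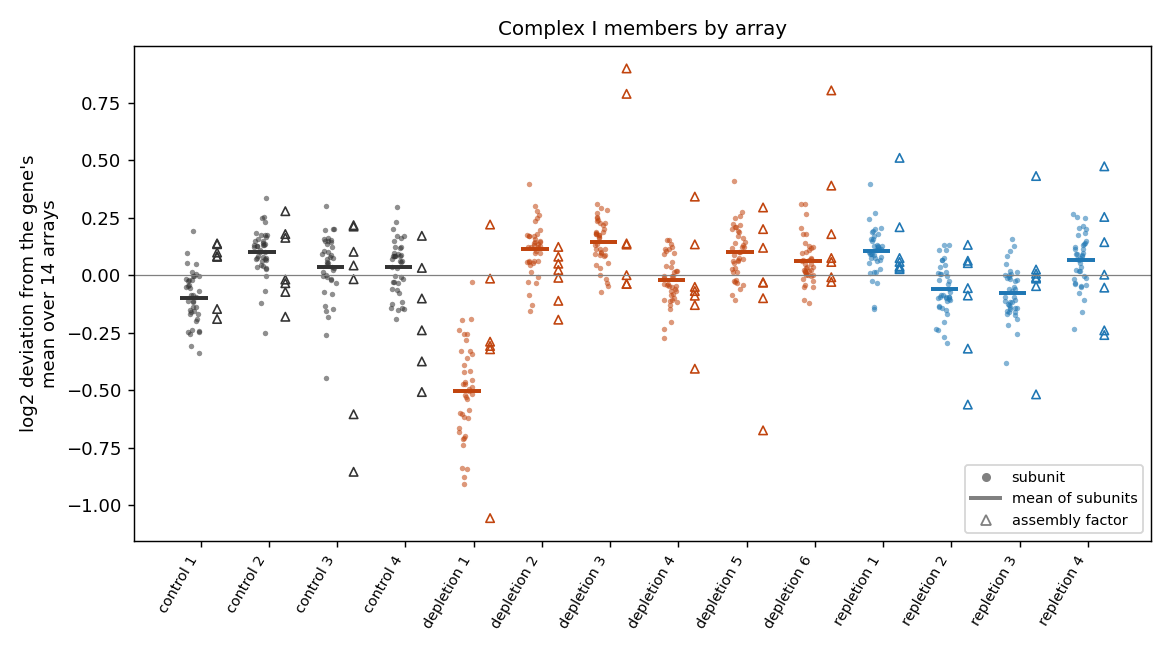
Log2 deviation of each member from its own mean over the 14 arrays (vertical axis) by array (horizontal axis), coloured by diet; dots are the 40 subunits, bars their mean, triangles the 7 assembly factors. All 40 subunits lie below 0 in depletion replicate 1, with a mean of -0.50, while the means of the other 13 arrays lie between -0.10 and 0.14.

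The nuclear core subunits carry the flavin, iron-sulfur centres and quinone site. Ndufv1, which binds the flavin and NADH, had levels of 6.02, 6.35, 6.38 and 6.11 in control, 5.65, 6.43, 6.35, 6.14, 6.14 and 6.17 in depletion and 6.30, 6.19, 6.01 and 6.19 in repletion. Its groups overlapped, with depletion replicate 1 below every other array, and depletion minus control was -0.11 ± 0.17 (SE), and 0.09 without that array. Ndufs1, the largest iron-sulfur subunit, was at 4.81, 4.84, 4.89 and 4.75 in control and at 4.02, 4.94, 4.94, 4.67, 4.86 and 4.79 in depletion. Its repletion values were 4.96, 4.66, 4.70 and 4.80, and repletion replicate 1 was the highest of the 14 arrays. The difference of depletion from control was -0.19 ± 0.20 (SE), and 0.10 without depletion replicate 1.

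Ndufs3, a core subunit of the peripheral arm, was at 4.61, 4.76, 4.82 and 4.79 in control and at 3.79, 4.80, 4.68, 4.48, 4.70 and 4.63 in depletion. In repletion it was at 4.80, 4.63, 4.60 and 4.70. Of the depletion arrays, replicates 1 and 4 lay below all controls. The fitted difference of depletion from control was -0.31 ± 0.19 (SE; adjusted p = 0.833 by limma), and -0.03 without depletion replicate 1. Ndufs8, which holds iron-sulfur centres near the quinone site, was at 2.80, 2.68, 2.77 and 2.84 in control, at 1.91, 2.67, 2.69, 2.41, 2.83 and 2.71 in depletion and at 2.76, 2.37, 2.45 and 2.63 in repletion. Its depletion minus control difference was -0.28 ± 0.19 (SE), and its repletion minus control difference was -0.24 ± 0.21 (SE; adjusted p = 1.00 by limma). The depletion difference was -0.02 without depletion replicate 1 and the repletion difference -0.14.

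Ndufs7, which carries the last iron-sulfur centre before ubiquinone, had group means of 5.92 ± 0.13 (SD, n = 4), 5.79 ± 0.24 (SD, n = 6) and 5.85 ± 0.16 (SD, n = 4) in control, depletion and repletion. Ndufv2, an iron-sulfur subunit beside Ndufv1, had means of 6.17 ± 0.10, 6.09 ± 0.23 and 6.09 ± 0.12 (SD, same n). These differences between means were smaller than the SD within the depletion group. The depletion means without depletion replicate 1 were 5.88 ± 0.10 for Ndufs7 and 6.18 ± 0.09 for Ndufv2 (SD, n = 5). All 7 core subunits had depletion differences below 0 (median -0.18), against 25 of 33 accessory subunits (median -0.07); without depletion replicate 1, 2 of 7 core and 7 of 33 accessory subunits were below 0, with medians of 0.06 and 0.09.

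**Figure D3:**
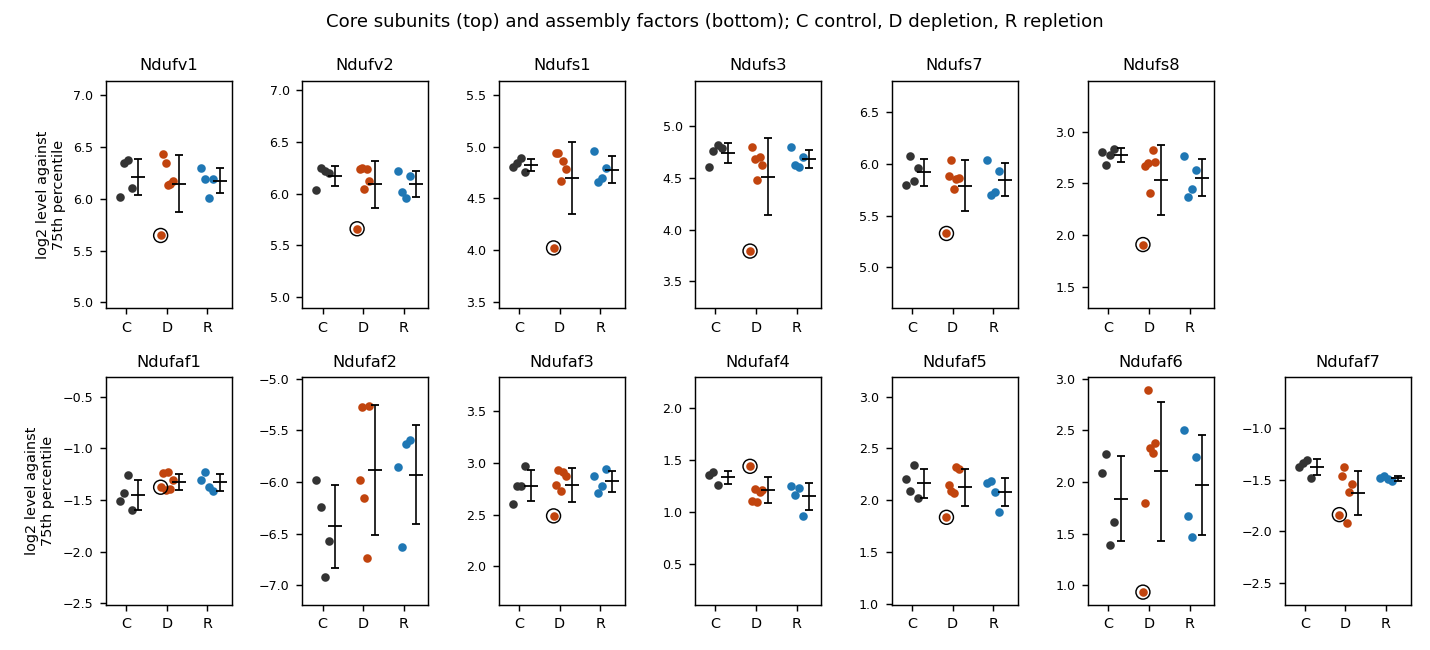
Log2 level against the array's 75th percentile (vertical axis, the same span in every panel) of 6 nuclear core subunits and the 7 assembly factors in control (C), depletion (D) and repletion (R); dots are arrays, the ringed dot is depletion replicate 1, and bars are mean and SD. The ringed dot is the lowest of all arrays for the 6 core subunits, and Ndufaf4 is the assembly factor for which it is the highest.

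Among accessory subunits, the lowest fitted difference of depletion from control was that of Ndufc1, a small membrane-arm subunit, with control levels of 3.95, 3.95, 4.26 and 4.04 and depletion levels of 3.08, 4.01, 4.07, 3.85, 4.14 and 4.00. The repletion levels were 4.03, 4.00, 4.08 and 3.91. It differed by -0.31 ± 0.19 (SE), and by -0.05 without depletion replicate 1. Depletion replicate 1 lay apart from the other 13 arrays. The highest subunit differences were 0.09 ± 0.15 (SE) for Ndufa4, 0.07 ± 0.14 for Ndufa5 and 0.05 ± 0.11 for Ndufs4, and 0.25, 0.22 and 0.15 without that array. Ndufa4 was first counted with complex I and is now known as a subunit of complex IV; without it the subunit median was -0.10 as before. Ndufab1, the mitochondrial acyl carrier protein, which sits in complex I and also serves fatty acid synthesis, differed by -0.23 ± 0.15 (SE), and by -0.02 without depletion replicate 1.

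By family, the median depletion minus control difference was -0.10 for 16 Ndufa genes, -0.08 for 11 Ndufb genes, -0.19 for 2 Ndufc genes, -0.13 for 8 Ndufs genes and -0.11 for 3 Ndufv genes. Without depletion replicate 1 the same medians were 0.06, 0.13, 0.08, 0.06 and 0.09. The medians of all 5 families changed sign with that array.

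The subunits whose levels varied most over the 14 arrays were Ndufa10 (SD 0.33), Ndufb10 (SD 0.32) and Ndufa3 (SD 0.28). Ndufa10, an accessory subunit related to nucleoside kinases, was at 4.27, 4.51, 3.89 and 4.37 in control, at 3.49, 4.50, 4.56, 4.06, 4.61 and 4.54 in depletion and at 4.73, 4.44, 4.38 and 4.32 in repletion. Depletion replicate 1 and control replicate 3 were low, and the groups overlapped. Its probe lies at chr9:91654891-91654950 (rn4) and that of Ndufa10l1, a gene named as its like copy, at chr9:91655487-91655546, less than 1 kb away. Which of the copies each probe reports could not be told apart here. The same holds for Ndufa7l and Ndufb4l1, named as like copies of Ndufa7 and Ndufb4. Not all such copies are neighbours, as the windows of Ndufb4 and Ndufb4l1 lie on chromosomes 11 and 14 of GRCr8. The file places the Ndufs6 probe on chromosome 2 of rn4 while RefSeq has the gene on chromosome 1 of GRCr8; of the 41 members with a window, Ndufa11, which the file leaves unplaced, was the other for which the chromosomes differed.

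In depletion replicate 1 the assembly factors were below their means in 5 of the 6 measured, and in depletion replicate 4 in 5 of 7. The median deviation over all probes in depletion replicate 1 was -0.11. That array was the lowest for 3 of the 6 assembly factors (50%), against 95% of the subunits and 19.2% of all probes. The mean deviation of the assembly factors ran from -0.17 to 0.04 in control, from -0.29 to 0.27 in depletion and from -0.11 to 0.14 in repletion. Their median deviation ran from -0.17 to 0.08, from -0.30 to 0.13 and from -0.06 to 0.06 in the same order. Ndufaf2 had no value in depletion replicate 1 and Ndufaf4 none in control replicate 4, so these 2 arrays were scored on 6 genes. The mean subunit deviation minus the mean assembly factor deviation ran from -0.13 to 0.21 in control, from -0.21 to 0.13 in depletion and from -0.06 to 0.05 in repletion, and the 3 ranges overlapped. The median difference of subunits minus that of assembly factors was -0.06 in depletion against control, -0.04 in repletion against control and 0.08 in repletion against depletion. Leaving out depletion replicate 1 made these -0.0072, -0.051 and -0.039.

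Ndufaf1, an early factor of membrane-arm assembly, was at -1.51, -1.43, -1.26 and -1.60 in control, at -1.38, -1.24, -1.40, -1.23, -1.39 and -1.30 in depletion and at -1.30, -1.23, -1.37 and -1.41 in repletion. The groups overlapped, and depletion differed from control by 0.13 ± 0.09 (SE; adjusted p = 0.834 by limma). Ndufaf7, a methyltransferase, was at -1.38, -1.34, -1.30 and -1.48 in control and at -1.84, -1.47, -1.38, -1.92, -1.62 and -1.54 in depletion. Its repletion levels were -1.48, -1.46, -1.49 and -1.51. Depletion replicate 1 and depletion replicate 4 were lowest, and 4 of 6 depletion arrays lay below all controls. Depletion differed from control by -0.27 ± 0.13 (SE), and this member had the lowest unadjusted p of that comparison (0.078; adjusted p = 0.833 by limma). Without depletion replicate 1 the difference was -0.17. A dimmer Ndufaf7 probe differed by -0.14 ± 0.20 (SE), and by 0.11 without that array.

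Ndufaf2, a late factor that stands in for a peripheral subunit, had the dimmest member probe and the largest spread (SD 0.54). Its levels were -5.98, -6.24, -6.92 and -6.57 in control, -5.98, -5.28, -6.15, -6.74 and -5.26 in depletion replicates 2 to 6 and -5.86, -6.63, -5.63 and -5.59 in repletion. The spot of depletion replicate 1 was marked as an outlier by the scanner software and its value dropped from the fit. Depletion differed from control by 0.36 ± 0.28 (SE; adjusted p = 0.839 by limma), and with another background correction (normexp) the difference was -0.03. Ndufaf6, needed for the mitochondrial ND1 subunit, was at 2.09, 2.27, 1.39 and 1.62 in control, at 0.94, 1.80, 2.89, 2.33, 2.28 and 2.38 in depletion and at 2.50, 1.67, 1.47 and 2.24 in repletion. Depletion replicate 1 was the lowest and depletion replicate 3 the highest of all arrays. Its difference of depletion from control was 0.09 ± 0.40 (SE), and 0.70 ± 0.24 (SE) without depletion replicate 1.

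Ndufaf3, an early peripheral-arm factor, had means of 2.78 ± 0.15 (SD, n = 4), 2.79 ± 0.17 (SD, n = 6) and 2.82 ± 0.10 (SD, n = 4) in control, depletion and repletion. Ndufaf5, a hydroxylase of the core subunit Ndufs7, had means of 2.16 ± 0.14, 2.13 ± 0.18 and 2.08 ± 0.14 (SD, same n). Ndufaf4, which acts together with Ndufaf3, was at 1.36, 1.38 and 1.26 in control, where the spot of control replicate 4 was dropped as an outlier, and at 1.44, 1.11, 1.22, 1.09, 1.19 and 1.21 in depletion. Here depletion replicate 1 was the highest of the 13 arrays measured. The repletion levels were 1.25, 1.16, 1.23 and 0.96, all below the 3 controls. Repletion differed from control by -0.10 ± 0.12 (SE) in the fit with slide. Ndufaf4 has 4 probes, and the dimmer ones differed by -0.13, 0.0023 and -0.05 in that comparison.

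In repletion against control, 30 of 40 subunits and 4 of 7 assembly factors had fitted differences below 0, with medians of -0.063 and -0.023 against 0.012 over all probes, of which 46.5% were below 0. No member passed the adjusted threshold (lowest adjusted p = 1.00 by limma), as did 0% of all probes. At an unadjusted p under 0.05 there were 0 members, against 1.99% of all probes. The lowest subunits were Ndufa7 (-0.26 ± 0.15, SE), Ndufs8 (above) and Ndufb5 (-0.19 ± 0.19, SE), and the highest were Ndufa10 (0.24 ± 0.29, SE), Ndufa4 (0.10 ± 0.16) and Ndufb3 (0.07 ± 0.19). Without depletion replicate 1 the differences were -0.22 for Ndufa7, -0.10 for Ndufb5, and 0.16 for both Ndufa4 and Ndufb3. Ndufa7, an accessory peripheral-arm subunit, was at -2.22, -1.98, -2.22 and -2.46 in control and at -2.46, -2.40, -2.31 and -2.55 in repletion. Of the 4 repletion arrays, 3 lay within the range of the controls and repletion replicate 4 below it. Without depletion replicate 1, whose removal also changes the slide term, the subunit median was -0.0038, with 21 of 40 below 0 against 46.4% of all probes, and Ndufa10 (0.39) was the member at an unadjusted p under 0.05, against 2.28% of all probes. The assembly factor median without depletion replicate 1 was 0.047, with 4 of 7 above 0. Without repletion replicate 1 the subunit median was -0.24. Both arrays lie on slide 1.

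In repletion against depletion, 30 of 40 subunits lay above 0 (median 0.025) and 5 of 7 assembly factors below 0 (median -0.051), against 0.037 over all probes, of which 41.1% were below 0. No member passed the adjusted threshold (lowest adjusted p = 0.933 by limma), as did 0% of all probes. At an unadjusted p under 0.05 there were 0 members, against 3.46% of all probes. Without depletion replicate 1, 37 of 40 subunits lay below 0 (median -0.09), where 42.9% of all probes did, and Ndufaf6 (-0.50) was the member at an unadjusted p under 0.05, against 2.87% of all probes. The highest subunits were Ndufa10 (0.22, and -0.04 without depletion replicate 1), Ndufs3 (0.19, and 0.01 without it) and Ndufc1 (0.19, and 0.02 without it). The lowest were Ndufa7 (-0.13, and -0.20 without it), Ndufs4 (-0.07, and -0.13 without it) and Ndufa10l1 (-0.06, and -0.14 without it). Since the 3 comparisons share arrays, their values for a member are not independent of each other. Among assembly factors, Ndufaf2 was lowest (-0.17) and Ndufaf7 highest (0.12, and 0.06 without depletion replicate 1).

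Differences were also taken within slides. On slide 1, depletion replicate 1 minus the mean of control replicates 1 and 2 gave a subunit median of -0.51 with 39 of 40 subunits below 0, while on slides 2 and 4, with 1 depletion and 1 control array each, the medians were 0.05 and 0.06 with 13 and 12 subunits below 0. Repletion replicate 1 minus depletion replicate 1, on slide 1, was above 0 for 40 of 40 subunits (median 0.60). The corresponding medians were -0.17 on slide 2, -0.13 on slide 3 and 0.02 on slide 5. Repletion minus control gave medians of 0.11 on slide 1 and -0.13 on slide 2, against 0.080 and 0.0019 over all probes. The all-probe medians of depletion minus control were -0.039, -0.019 and -0.087 on slides 1, 2 and 4. Those of repletion minus depletion were 0.13, 0.021, -0.028 and 0.034 on slides 1, 2, 3 and 5.

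Slide itself was tested as a term in the same model. None of the 47 members was called for slide at an adjusted p under 0.05 (limma's moderated F test; lowest adjusted p = 0.099, Ndufaf2), where 7399 of 26391 probes were (28.0%). Brightness goes with this count: of the 3225 probes with a mean level of at least 2, which 41 of the 47 members also reached, 1.67% were called for slide, against 31.7% of the 23166 dimmer probes. The members' median SD over the 14 arrays was 0.19, against 0.34 for all probes tested and 0.19 for those with a level of at least 2. The members' count of 0 is near the share called among bright probes. Limma's F test over the 3 diets called 0 members and 0% of all probes (lowest member's unadjusted p = 0.188, against 3.10% of all probes under 0.05).

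The probes of a gene did not always differ in the same direction. Of 11 members with several probes, all probes of a gene had the same sign in 8 for depletion minus control, in 6 for repletion minus control and in 7 for repletion minus depletion. These counts were 7, 5 and 7 without depletion replicate 1. Ndufv3, an accessory subunit beside Ndufv1, showed the widest split in depletion minus control. Its 2 dimmer probes are printed because their differences had opposite signs over all 14 arrays. They lie on the plus strand at chr20:9957258-9957317 (upstream probe) and chr20:9960098-9960157 (downstream probe) in rn4; exon annotation of that build was not used here, and no letters are capitalised because no motif is at issue.
Ndufv3 upstream probe: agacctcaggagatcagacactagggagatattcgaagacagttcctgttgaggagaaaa
Ndufv3 downstream probe: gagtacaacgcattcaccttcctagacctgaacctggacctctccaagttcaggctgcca
The upstream probe was at -0.40, -0.998, -0.99 and -1.43 in control, -0.61, -0.45, -0.86, -0.69, -0.03 and -0.53 in depletion and -1.01, -0.84, -0.59 and -1.05 in repletion. All 6 depletion values were above 3 of the 4 controls, control replicate 1 was higher than 5 of the 6, and depletion minus control was 0.51 ± 0.25 (SE; adjusted p = 0.833 by limma). The downstream probe was at 5.13, 5.43, 5.14 and 5.52 in control and at 4.74, 5.27, 5.44, 5.13, 5.43 and 5.17 in depletion, and it differed by -0.14 ± 0.16 (SE). The brightest Ndufv3 probe, farther downstream, differed by -0.06 ± 0.18 (SE). The opposite signs rested on depletion replicate 1: without it the differences were 0.62 for the upstream, 0.05 for the downstream and 0.16 for the brightest probe. Depletion replicate 1 was the lowest array for both downstream probes and not for the upstream one. For Ndufs4 the 2 probes differed likewise in sign, 0.05 for the brighter and -0.33 ± 0.21 (SE) for the dimmer, and 0.15 and -0.06 without depletion replicate 1.

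The core subunits encoded in mitochondrial DNA are outside the naming rule, and 6 of them could be recognised by the description of their probes; they were chosen after their values were seen. Depletion minus control was -0.03 ± 0.13 (SE) for ND1, -0.16 ± 0.22 for ND2, -0.08 ± 0.14 for ND4, -0.35 ± 0.23 for ND4L, -0.40 ± 0.26 for ND5 and 0.59 ± 0.37 for ND6, and none was called (lowest adjusted p = 0.833 by limma). In the same order, the differences without depletion replicate 1 were 0.08, 0.04, 0.05, -0.10, -0.14 and 0.38. In depletion replicate 1 the deviations of ND1, ND2, ND4, ND4L and ND5 were between -0.78 and -0.24, and that of ND6, the ND gene encoded on the other (light) strand, was 0.88. Of the 6, 4 had their lowest value in that array. The RefSeq table also gives the names Ndufaf8, Ndufb4l3 and Ndufa13 to 3 probes that carry other names in the files; their depletion minus control differences were -0.01 ± 0.18, -0.09 ± 0.13 and -0.07 ± 0.14 (SE), and 0.18, 0.04 and 0.08 without depletion replicate 1.

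Of 9 other complex I assembly genes, 7 were measured and none passed the adjusted threshold in any of the 3 comparisons (limma). In depletion against control 4 were above and 3 below 0, and 5 and 2 without depletion replicate 1. The highest was Acad9, an acyl-CoA dehydrogenase that also assembles the complex, at 0.71 ± 0.40 (SE), and at 0.11 without depletion replicate 1. The lowest was Tmem126b, a membrane-arm factor, at -0.16 ± 0.13 (SE), and at -0.02 without that array, where Timmdc1 (-0.14) was lowest and Nubpl (0.13) highest. Of 13 regulators of mitochondrial biogenesis, 9 were below 0 (7 without depletion replicate 1) and none was called. The lowest was Ppargc1a, the coactivator PGC-1α, at -0.47 ± 0.27 (SE), and at -0.30 without depletion replicate 1. The highest was Gabpa, a subunit of NRF-2, at 0.08 ± 0.10 (SE), and at 0.15 without it. Nrf1, which encodes NRF-1, differed by -0.05 ± 0.10 (SE), and Yy1 by -0.12 ± 0.10 (SE); without that array these were -0.13 and -0.11.

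The other respiratory complexes were low in the same muscle. In depletion replicate 1 the mean deviation was -0.50 for complex II (4 genes), -0.47 for complex III (9 genes), -0.40 for complex IV (10 of 11 genes measured) and -0.37 for complex V (12 genes), beside -0.50 for the complex I subunits. It was the lowest array for 4 of 4, 8 of 9, 7 of 10 and 10 of 12 of their genes. Their median differences of depletion from control were -0.09, -0.13, -0.10 and -0.12, and 0.12, 0.09, 0.11 and 0.14 without that array. No gene of complexes II to V was called. A difference between complex I and the other complexes was not tested.

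Markers of other cell types moved in the same array. All 3 erythroid markers (Hbb, Alas2, Slc4a1) were above their means there, with a mean deviation of 1.62, where the other depletion arrays ran from -0.62 to 0.44, controls from -0.66 to -0.16 and repletion arrays from -0.39 to 0.35. Of 5 fibroblast markers (Col1a1, Col1a2, Col3a1, Dcn and Pdgfra) 4 were below their means and 1 above. The mean deviation was -1.10 (other depletion arrays -0.65 to 0.32, controls -0.19 to 0.74, repletion -0.39 to 0.39). Most of it came from the collagens Col1a1, Col1a2 and Col3a1, at -1.84, -1.58 and -1.86, while 1 of Dcn and Pdgfra lay above its mean. All 7 slow fibre markers were above their means (mean deviation 0.59, other depletion arrays -0.32 to 0.60, controls -0.57 to -0.19, repletion -0.65 to 0.60). Of 8 general muscle fibre markers 7 were below, with Pvalb, a calcium buffer of fast fibres, at -1.09. Their mean deviation was -0.25 (other depletion arrays -0.12 to 0.19, controls -0.23 to 0.19, repletion -0.21 to 0.22). For both of these lists other arrays lay close to depletion replicate 1. No defining marker of these 4 lists was below background on any array. Their part in the low complex I values was not tested. In bulk muscle, fewer fibres of a type and less RNA per fibre cannot be told apart.

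**Figure D4:**
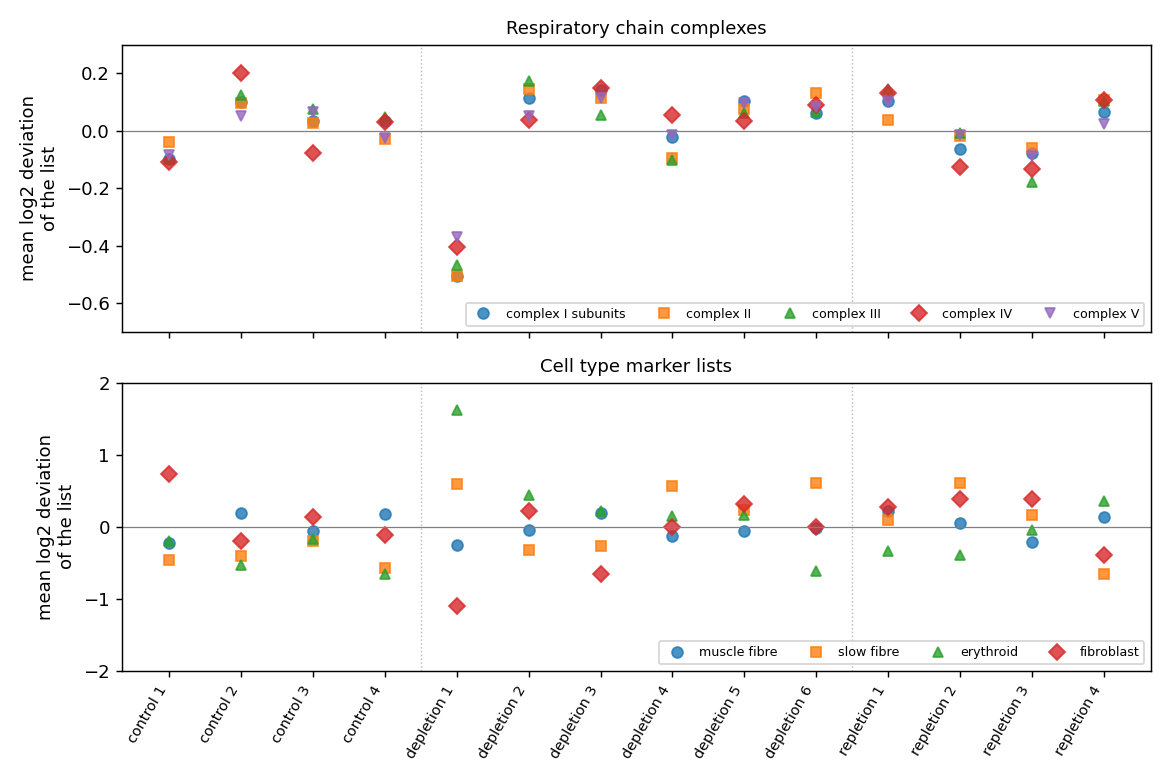
Mean log2 deviation of each gene list from its genes' 14-array means (vertical axes) by array (horizontal axis), for complexes I to V (upper panel) and for 4 marker lists (lower panel); dotted lines separate the groups. Depletion replicate 1 lies at -0.50 to -0.37 for the 5 complexes, at 1.62 for the erythroid and at -1.10 for the fibroblast list.

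The slow fibre markers were also above 0 in depletion minus control as a list, 7 of 7 with a median of 0.74 and 0.59 without depletion replicate 1, and none was called. Their mean deviation ran from -0.57 to -0.19 in control, from -0.32 to 0.60 in depletion and from -0.65 to 0.60 in repletion. The mean deviations of the complex I subunits in the arrays highest for slow fibre markers (depletion replicates 1, 4 and 6 and repletion replicate 2) were -0.50, -0.02, 0.06 and -0.06. Of the remaining marker lists, the 4 Schwann cell genes lay above 0 in repletion minus control (median 1.29), with mean deviations from -0.89 to 0.67 in control, -0.68 to 0.27 in depletion and -0.25 to 2.34 in repletion. The median depletion minus control difference was 0.33 for 5 macrophage, -0.069 for 5 adipocyte and 0.023 for 4 endothelial markers, with 0.25, 0.03 and 0.08 without depletion replicate 1, and none of these genes was called. Their part in the complex I values was not tested.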

How the data were processed

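Total RNA of plantaris muscle was measured on 14 single-colour (Cy3) Agilent arrays, per the labels. Per the file headers, the deposited spot intensity is the processed signal of Agilent Feature Extraction 11.5.1.1, background-subtracted within each array and not scaled between arrays. The authors' deposited table holds 26902 log2 values per array; how they were normalized is not given in the sources used here, and it served only as an alternative. Nothing was imputed. Outlier-marked spots (0.669% to 1.05% per array) were dropped, spots of a probe averaged, and log2 intensity centred on the array's 75th percentile (1781 to 2387). Probes well above background on at least 4 arrays with at least 2 values per group were kept, 26391 of 30367. Diet and slide were fitted with limma 3.58.1 in R 4.3.3 (lmFit, eBayes, Benjamini-Hochberg over all kept probes). The fit was also run on simulated data. Genes named in the text were all assembly factors, the core subunits, Ndufa4 and Ndufab1, and the 3 highest and 3 lowest subunits per comparison. Also named were the most variable members and the brightest and dimmest subunit probes. Further members were named for values, sequences or names seen in the data: Ndufs6, Ndufa6, Ndufv3, Ndufa11, the like copies and those flagged below. Other lists mostly give their highest and lowest gene. The members and lists were chosen with earlier results of these data known. With each group's mean taken off, same-numbered arrays of different groups correlated at -0.49 to 0.72 over 12 pairs. Pairs on the same slide ran from 0.23 to 0.72, and pairs on different slides from -0.49 to 0.39. Replicate numbers were therefore not used as pairs. Alternatives covered the block, the doubtful array, background correction, centring, filters, and each array left out. Tables and figures were made with Python 3.11.15, pandas 2.3.3 and matplotlib 3.10.9. Of the members, 1 enters the counts and medians and is not reported here by itself. No protein sequences were used here.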

Additional observations from a re-analysis of the deposited data

Results flagged for a closer look

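A sample was set apart where its gap to the nearest other sample of its group took up more of the group's range than Dixon's 95% limit allows, which chance gives in about 1 in 20 groups. This was so in 26 of 149 groups of member levels and mean deviations. These groups share the same arrays and are not independent, so the count cannot be set against that share. In 23 of these the sample was depletion replicate 1, the array whose diet label contradicts its title. Its mean subunit deviation was -0.50, next to -0.02 in the nearest depletion array. Its levels were low, with the next lowest depletion array given beside them, for Ndufb9 (5.80, next 6.28), Ndufb3 (5.63, next 6.37), Ndufb2 (5.12, next 5.67), Ndufb5 (4.90, next 5.70), Ndufb11 (5.25, next 5.59), Ndufb10 (4.67, next 5.46) and Ndufb6 (4.60, next 5.12) among membrane-arm Ndufb subunits. They were low for Ndufa6 (5.59, next 5.91), Ndufa12 (4.49, next 5.13), Ndufab1 (4.40, next 4.92), Ndufa13 (4.25, next 4.75), Ndufa2 (2.95, next 3.37) and Ndufa11 (2.99, next 3.34) among Ndufa subunits, and for Ndufv2 (5.66, next 6.05), Ndufv3 (4.94, next 5.55), Ndufc2 (4.86, next 5.48), Ndufs5 (5.01, next 5.49), Ndufs1 (4.02, next 4.67), Ndufs3 (3.79, next 4.48), Ndufs4 (3.73, next 4.02) and Ndufc1 (3.08, next 3.85) among Ndufc, Ndufs and Ndufv subunits. The assembly factor Ndufaf4 was high in it, at 1.44 next to 1.22. Control replicate 1 was low for Ndufb4 (5.86, next 6.17) and Ndufa6 (5.78, next 5.97) among controls, and depletion replicate 3 was high for Ndufs6 (5.58, next 5.32). Ndufa6 was set apart at the low end in both groups.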

How the results depend on the processing

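No probe was called for diet under any alternative run (0 in each comparison), with single arrays left out as well. The subunit median for depletion against control ran from -0.16 to 0.091 when single arrays were left out, the highest without depletion replicate 1. It was 0.028 without that array and without the slide block, and 0.055 for the authors' values without that array; these last alternatives were chosen after seeing the data. For repletion against control it ran from -0.24 (without repletion replicate 1) to -0.0038, and for repletion against depletion from -0.088 to 0.12. The latter was -0.15 with depletion replicate 1 counted as repletion, -0.073 without that array and the block, and -0.077 in the authors' values without it. The assembly factor median for depletion against control ran from -0.069 to 0.098 with single arrays left out, and was 0.093 with outlier-marked spots kept and 0.091 in the authors' values without depletion replicate 1. The subunit median minus the assembly factor median for repletion against depletion was -0.094 with that array counted as repletion. Signs of single members turned as follows. Depletion minus control was -0.014 for Ndufa5 with the replicate block, -0.0092 for Ndufs4 in the authors' values and -0.034 for Ndufaf2 with normexp; leaving out single arrays gave -0.0055 to 0.25 for Ndufa4, -0.033 to 0.22 for Ndufa5 and -0.045 to 0.15 for Ndufs4. Repletion minus control was -0.25 for Ndufaf2 with normexp and -0.019 for Ndufb3 with depletion replicate 1 counted as repletion; leaving out single arrays gave -0.0095 to 0.20 for Ndufa4 and -0.11 to 0.18 for Ndufb3. Repletion minus depletion was -0.16 for Ndufa10, -0.073 for Ndufs3 and -0.065 for Ndufc1 with depletion replicate 1 counted as repletion, and ran from -0.037 to 0.34 for Ndufa10 and from -0.31 to 0.028 for Ndufaf2 with single arrays left out. Slide called 2112 probes with normexp in place of 7399, and 1 member in place of 0 with quantile normalization, 1 with median centring and from 0 to 1 with single arrays left out. The replicate block in place of slide gave subunit medians of -0.086, -0.039 and 0.053 in the 3 comparisons and changed no call. The cause of these shifts was not tested, beyond the arrays named. All other alternatives kept direction and call, or moved by less than the SD of the control arrays. Ndufa4l2 was named in an alternative and has no probe of that name, so Ndufa4 alone was left out there.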
